A study of Homo sapiens with 14 samples.

Results

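HCC70 is an established line of triple-negative breast cancer cells, which lack the oestrogen and progesterone receptors and an amplified HER2 gene. The comparison is between vehicle-treated HCC70 cells harvested at 48 h and at 24 h, with 1 RNA-seq library at each time, and it asks how the transcriptome of cells that received no compound differed between the harvests. Its members were the genes with more than 1 FPKM (fragments per kilobase of transcript, scaled to the mapped fragments) in either library, 11828 of the 35153 genes in the files of the series. The 10 genes just inside that limit reached 1.01 FPKM in their higher library, and the 7 just outside it reached 1.00. The series holds 14 libraries of HCC70 and C4-2B cells given vehicle, ursolic acid (UA, a plant triterpenoid) or, in C4-2B, digoxin, of which 10 are used here. Beside the vehicle pair these are the HCC70 libraries with 5 µM and 10 µM UA at 24 and 48 h, and the vehicle libraries of C4-2B, a prostate cancer line, at 24 and 48 h in the UA series and in the digoxin series. All HCC70 cells are labelled wild type and were grown in RPMI medium with fetal bovine serum. The labels do not say what the vehicle was, nor whether the harvests came from separate cultures. With 1 library per condition there is no error and no p-value for the vehicle pair itself, and a gene is called higher or lower when it passed 2-fold on the scale of log2(FPKM + 0.1), a pseudocount that understates the change of low genes.

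HCC70 cells belong to the basal-like group of breast cancers, which share with the outer cell layer of the breast duct and with stratified epithelium the keratins of the KRT5, KRT14 and KRT17 group. In stratified epithelium KRT6A, KRT16 and KRT17 are the keratins of wounded or fast-growing cells, and small proline-rich proteins and involucrin are linked into the cornified envelope as cells mature. Epithelial cells also secrete the CXCL chemokines that attract neutrophils, whose genes are classical targets of the transcription factor NF-kB, and acute-phase proteins that bind iron, copper or bacterial products.

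The labelled cell type could be checked against its markers. KRT5 was at 1485 FPKM at 24 h and 761 at 48 h, CDH3 (P-cadherin) at 490 and 541, and EGFR at 32.0 and 38.4. ESR1, the oestrogen receptor, was at 0.56 and 0.68 FPKM, PGR was listed at 0 in both libraries, and ERBB2 (HER2) was at 32.2 and 34.9. SOX10, another basal marker, was also listed at 0. Of the marker genes of other cells, 1 of 8 for fibroblasts, 2 of 8 for immune cells and 0 of 5 for endothelium were above 1 FPKM. COL1A1 was at 6.85 and 6.17 FPKM, CD14 at 131 and 156, and CD68 at 209 and 208, both of which are also made by cells other than leukocytes. In bulk RNA, fewer cells of a kind and less RNA per cell cannot be told apart.

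Of the 11828 genes, 173 (1.46%) were 2-fold or more higher at 48 h and 239 (2.02%) were 2-fold or more lower, so that 11416 stayed within 2-fold. The most abundant of the lower genes included those of basal keratins, cornified-envelope proteins and chemokines, and the most abundant of the higher genes included CASP14, CP, UCA1 and SCD. At 1.5-fold the counts were 599 (5.06%) and 1109 (9.38%), and at 3-fold they were 38 and 62. Between 5 µM UA and vehicle, both at 24 h, 87 (0.736%) of these genes were 2-fold higher and 85 (0.719%) lower. Most of the called genes were of low abundance: 55 of the higher and 92 of the lower genes were above 5 FPKM in either library. Readthrough genes, small RNAs, pseudogenes and copies with identical values, whose FPKM is uncertain, made up 31 of the higher and 39 of the lower genes, against 325 of all genes compared, and the remaining genes held 142 higher (1.23%) and 200 lower (1.74%). Of the 11177 protein-coding genes, 124 were higher (1.11%) and 187 lower (1.67%), and of 391 long noncoding RNAs 22 were higher and 20 lower.

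**Figure D1:**
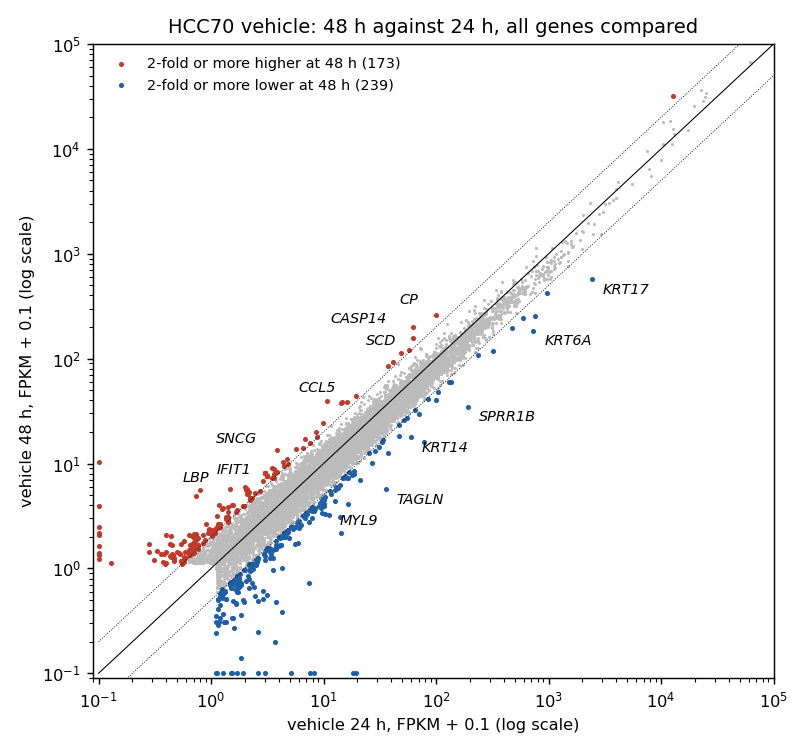
FPKM + 0.1 at 48 h (y) against 24 h (x) in vehicle-treated HCC70 cells on log scales, 1 point per gene, with lines at equality (solid) and at 2-fold (dotted). The 173 genes 2-fold or more higher at 48 h are red and the 239 lower genes blue, and KRT17 (2420 to 573 FPKM), TAGLN (35.7 to 5.57), CASP14 (62.5 to 199.8) and CP (98.9 to 262) are among those named.

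The split of the calls depended on the scaling. The median log2 ratio of all genes was −0.11, with quartiles at −0.34 and 0.14, and 7302 genes (61.7%) were lower against 4493 (38%) higher at any size. The 13 protein-coding genes of the mitochondrial genome took 35.3% of the summed FPKM at 24 h and 44.4% at 48 h. With both libraries set to the same sum without these genes, the median was 0.11 and 298 genes were higher and 122 lower. Centred on the median, 229 were higher and 172 lower, and centred on a trimmed mean 247 and 155. Every log2 ratio below is on the deposited scale, and a list with a median near −0.11 lay with the bulk of the genes.

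Keratins stood lowest of the gene lists. Of the 21 keratin genes listed, 18 were above 1 FPKM, 17 of them were lower at 48 h, and 8 were past 2-fold, with a median log2 ratio of −0.88. Of all genes compared, 61.7% were lower at any size and 2.02% past 2-fold. KRT17 (chr17:41619442-41624842 on the minus strand of hg38) was at 2420 FPKM at 24 h and 573 at 48 h, a log2 ratio of −2.08. KRT6A was at 732 and 184 (−1.99) and its neighbour KRT6B, also on chromosome 12, at 971 and 424 (−1.19). KRT16 was at 754 and 253 (−1.57) and KRT14, the usual partner of KRT5, at 59.6 and 17.7 (−1.74).

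These 5 keratins were all past 2-fold. KRT5 itself was at 1485 and 761 FPKM, just short of 2-fold (−0.96). The simple-epithelium keratins differed less, KRT7 being at 1042 and 603, KRT8 at 689 and 417 and KRT18 at 289 and 200.5. KRT19, the most abundant keratin at 48 h, was at 1582 and 1317 (−0.26), and KRT4 was the single keratin that was higher, at 26.5 and 31.6. KRT75, KRT81 and KRT6C, the other members past 2-fold, were below 2 FPKM in both libraries. The keratins 6A, 6B and 6C, and 14, 16 and 17, are near-identical over long stretches, so that the division of fragments among them is uncertain. With the sum set without mitochondrial genes, 7 of the 8 keratins stayed past 2-fold and 16 of 18 were lower.

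Several genes of the cornified envelope were lower as well, while the S100 alarmins were not. Of the 29 members of the list of envelope and alarmin genes above 1 FPKM, 22 were lower, 6 of them past 2-fold, with none 1.5-fold higher, and the median log2 ratio was −0.37. Of all genes compared, 61.7% were lower at any size and 2.02% past 2-fold. On the scale without mitochondrial genes, 19 of the 29 were lower, 5 of them past 2-fold. SPRR1B, a small proline-rich envelope precursor, was at 192 FPKM at 24 h and 34.7 at 48 h (−2.47). SPRR2E was at 78.3 and 15.8, SPRR2D at 36.9 and 12.4 and SPRR2A at 471 and 195. IVL (involucrin) was at 6.23 and 2.49, TGM1, the transglutaminase that links envelope proteins, at 1.16 and 0.42, and SBSN (suprabasin) at 33.0 and 15.9. The kallikrein proteases KLK10 (514 and 274 FPKM) and KLK5 (239 and 140) were lower without reaching 2-fold. S100A7, S100A8 and S100A9, calcium-binding proteins that are released in inflamed epithelium, were at 12843, 4139 and 12899 FPKM at 24 h and at 15609, 4885 and 13862 at 48 h, and LCN2 (lipocalin-2) was at 10390 and 11088. The SPRR2 genes are near-identical copies next to each other on chromosome 1, and fragments may be divided among them in error.

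The promoters of SPRR1B and SPRR2A are shown because they hold matches to the binding motif of AP-1, the FOS-JUN dimer. Sequences run from 250 bases before to 50 after the start of the gene and are from RefSeq (GRCh38.p14). Capitals mark matches to the AP-1 motif TGANTCA and, in SPRR2A, to the TATA motif TATAAA. The SPRR1B window is chr1:153030953-153031252 on the plus strand and the SPRR2A window chr1:153057463-153057762 on the minus strand.
SPRR1B: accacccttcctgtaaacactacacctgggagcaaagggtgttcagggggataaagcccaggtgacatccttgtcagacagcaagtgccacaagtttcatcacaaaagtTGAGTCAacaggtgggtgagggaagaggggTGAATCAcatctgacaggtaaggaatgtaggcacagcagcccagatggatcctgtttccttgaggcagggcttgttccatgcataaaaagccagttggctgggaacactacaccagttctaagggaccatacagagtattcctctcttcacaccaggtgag
SPRR2A: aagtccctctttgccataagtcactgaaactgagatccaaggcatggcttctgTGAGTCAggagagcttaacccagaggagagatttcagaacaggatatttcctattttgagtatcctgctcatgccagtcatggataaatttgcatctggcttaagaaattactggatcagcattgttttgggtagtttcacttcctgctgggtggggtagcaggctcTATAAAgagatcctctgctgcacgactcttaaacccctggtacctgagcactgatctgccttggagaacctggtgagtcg

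SPRR1B held 2 matches to TGANTCA, whose first bases lie 141 and 111 bases before the start, and SPRR2A held 1, at 197 bases before it, with TATAAA at 30 bases before it. Searched on both strands, TGANTCA was found in 20 of the 148 promoters of lower genes present in the RefSeq table (13.5%), among them those of IVL, SBSN, SPRR2F, PRSS3, CPA4 and TUBB3, and in 5 of the 103 promoters of higher genes (4.85%). It was in 4.47% of the promoters of all genes compared and in 7.76% of the 27305 promoters of the whole table. TATAAA, added after these values were seen, was in 15.5% of lower, 7.77% of higher and 5.59% of all genes compared, and in 11.95% of all promoters. The other motifs searched, given with lower genes first, then higher, then all genes compared, were GGAATG of TEAD factors (16.2, 15.5 and 10.5%), TTGGCGC of E2F (5.41, 4.85 and 5.07%), CACGTG of MYC (7.43, 9.71 and 10.5%), ACGTG of hypoxia-inducible factors, which lies within CACGTG (25, 27.2 and 27.4%), CCAAT (35.8, 30.1 and 37.0%) and TTTGAA (10.1, 8.74 and 9.57%). Matches are descriptions of these windows, and binding was not measured.

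TAGLN and MYL9 stood apart from the other genes of the actin cytoskeleton. TAGLN (transgelin, an actin-binding protein that is usually a smooth-muscle marker) was at 35.7 FPKM at 24 h and 5.57 at 48 h, a log2 ratio of −2.66. MYL9, a regulatory myosin light chain, was at 11.1 and 3.16 (−1.78). The other 17 members of that list above 1 FPKM lay between FLNA (filamin A) at 490 and 319 FPKM (−0.62) and VCL (vinculin) at 21 and 25.4 (0.27). The list median, −0.09, lay with the bulk of the genes. Further genes among the lowest were PRSS3, a trypsinogen, at 16.5 and 4.01 FPKM, EPGN (epigen, a ligand of the EGF receptor) at 10.2 and 3.21, and CYP1A1, a target of the aryl hydrocarbon receptor, at 12.5 and 4.30. ALYREF, an mRNA export adaptor, was at 99.3 and 40.3, PMEPA1, a feedback inhibitor of TGF-beta signalling, at 135 and 59.2, and TRIM29 at 104 and 48.2.

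Several chemokines that recruit neutrophils were lower at 48 h, and CCL5 was higher. Of 27 chemokine and cytokine genes listed, 20 were above 1 FPKM. Of these 14 were lower, 5 past 2-fold, and 1 was past 2-fold higher, with a median of −0.51, beside 61.7% of all genes lower at any size and 2.02% lower past 2-fold. CXCL1 was at 588 FPKM at 24 h and 242 at 48 h (−1.28). CXCL6 was at 46.5 and 18.2 (−1.35), CXCL2 at 9.01 and 3.87 (−1.20), CXCL3 at 3.27 and 1.16 (−1.42) and CXCL8 (interleukin-8) at 47.1 and 23.2 (−1.02). CXCL5 was at 52.0 and 42.8 and CXCL16 at 236 and 184. CCL5, which recruits T cells and monocytes, was at 19.5 and 44.2 (1.18), and CCL2, which recruits monocytes, at 184 and 235 (0.35). On the scale without mitochondrial genes, 3 of the chemokines were past 2-fold lower and 13 of 20 were lower at any size.

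NF-kB subunits and inhibitors, most of which are targets of NF-kB themselves, had a median of −0.37 with 12 of 16 lower, beside 61.7% of all genes, and 10 of 16 on the scale without mitochondrial genes. RELB, a subunit of the non-canonical pathway, was at 9.77 and 4.51 FPKM, TNFAIP3 (A20, a feedback inhibitor) at 6.83 and 3.24 and NFKBIA (IkB-alpha) at 219.8 and 115. NFKBIA was short of 2-fold (−0.93), and RELB and TNFAIP3, which were past it, fell short of it on each of the 3 other scalings. Not all genes of that kind were lower: TNFAIP2 was at 384 and 532 FPKM and ICAM1 at 10.0 and 12.2. Among 18 immediate early genes 16 were lower (median −0.41), FOSL1 (FRA-1, an AP-1 subunit) being at 18.6 and 7.89, JUNB at 168 and 114 and MYC at 62.2 and 45.7, while FOS was at 14.9 and 16.9.

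The CXCL8 and CXCL1 promoters are printed because these chemokines are classical AP-1 and NF-kB targets, with RefSeq windows at chr4:73740319-73740618 and chr4:73869143-73869442, both on the plus strand of GRCh38.p14. Capitals mark TGANTCA and TATAAA in CXCL8 and the NF-kB motif in CXCL1. The pattern searched for NF-kB begins with GGG and ends with CC, and the CXCL8 window held no match to it. Sites that depart from this pattern were not searched.
CXCL8: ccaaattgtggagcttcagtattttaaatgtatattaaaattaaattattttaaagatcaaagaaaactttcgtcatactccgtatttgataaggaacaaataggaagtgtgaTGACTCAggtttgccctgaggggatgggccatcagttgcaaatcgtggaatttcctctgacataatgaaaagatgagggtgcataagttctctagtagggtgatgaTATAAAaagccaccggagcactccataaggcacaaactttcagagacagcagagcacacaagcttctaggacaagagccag
CXCL1: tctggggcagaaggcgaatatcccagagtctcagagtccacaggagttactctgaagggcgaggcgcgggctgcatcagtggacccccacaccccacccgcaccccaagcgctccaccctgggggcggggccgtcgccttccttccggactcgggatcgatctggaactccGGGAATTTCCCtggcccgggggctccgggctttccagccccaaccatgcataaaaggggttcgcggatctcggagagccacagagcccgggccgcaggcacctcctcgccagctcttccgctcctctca

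In CXCL8 the AP-1 match begins 137 bases and the TATA match 31 bases before the start. In CXCL1 the capitals hold 2 overlapping matches to the NF-kB motif, beginning 79 and 78 bases before the start. The NF-kB motif, also added after seeing the values, was in 15.5% of the promoters of lower genes, 14.6% of those of higher genes, 12.9% of those of all genes compared and 10.8% of the whole table.

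The higher genes included secreted acute-phase and defence proteins of epithelium. LBP, which binds bacterial lipopolysaccharide, was at 1.37 FPKM at 24 h and 5.64 at 48 h (1.97). CP (ceruloplasmin, a copper-carrying ferroxidase) was at 98.9 and 262 (1.40) and ORM2, an acute-phase glycoprotein, at 15.9 and 38.7 (1.28). ORM1, a near-identical neighbour of ORM2 on chromosome 9, was at 2.01 and 4.99, and the division of fragments between them is uncertain. HP (haptoglobin) was at 0.64 and 4.79 FPKM, LTF (lactoferrin) at 8.49 and 19.9 and DMBT1, a mucosal scavenger-receptor protein, at 14.5 and 38.6. These genes are given as they came from the rule for the largest changes or were chosen after their values were seen (ORM1, HP and LTF), and they are not a list with a count of its own.

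CASP14, a caspase of the cornifying epidermis, was at 62.5 FPKM at 24 h and 199.8 at 48 h (1.68), while the envelope genes SPRR1B, IVL and TGM1 were lower. SNCG (gamma-synuclein) was at 3.79 and 13.2 (1.78), MXRA5, a matrix-remodelling protein, at 14.2 and 37.8 (1.40) and CREB3L1, a membrane-bound transcription factor, at 4.62 and 11.1 (1.24). Of the long noncoding RNAs, UCA1 was at 62.1 and 156 (1.33) and MALAT1 at 41.3 and 93.2 (1.17). TUBA1B-AS1 was at 10.6 and 39.7 and RCC2-AS1 at 0.69 and 5.52 (2.83). The library kit does not mark strand, so fragments of these antisense genes and of their partners TUBA1B and RCC2 cannot be told apart.

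**Figure D2:**
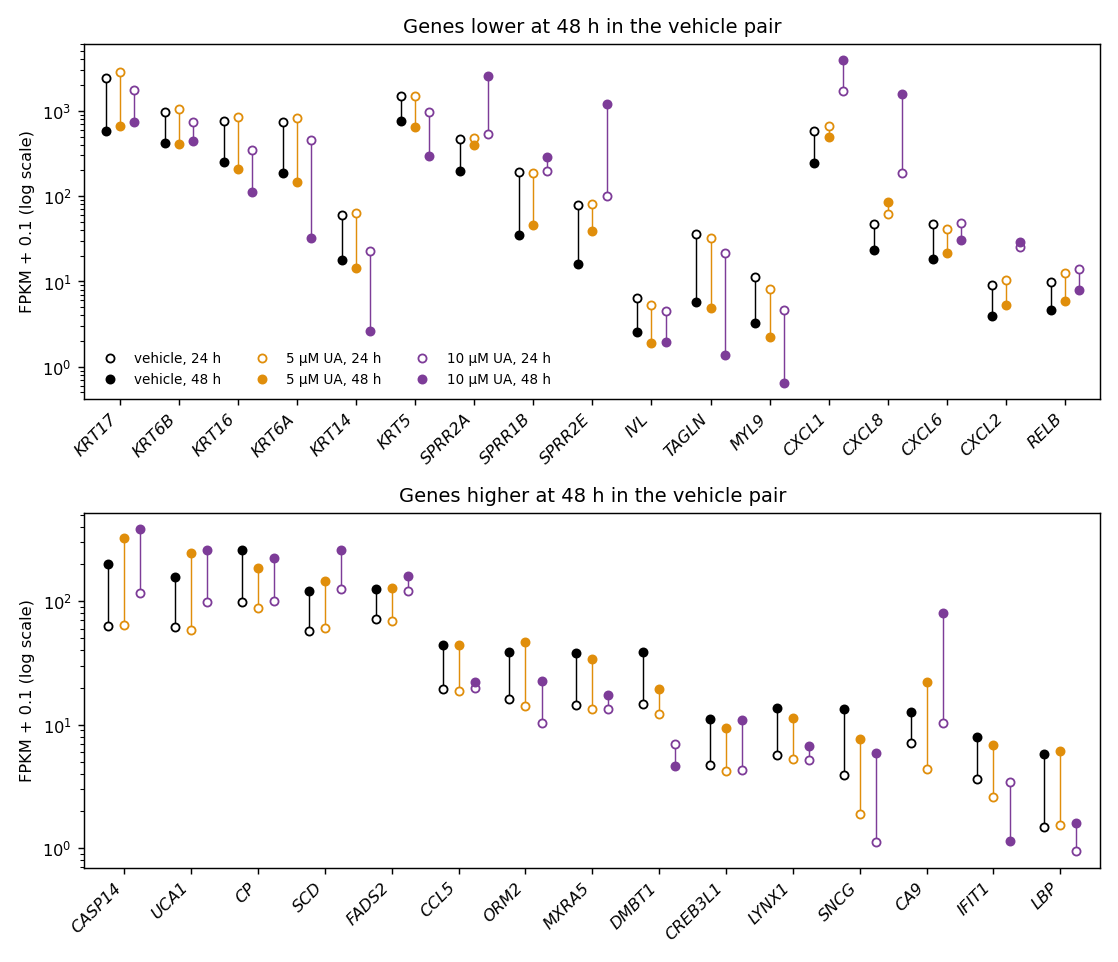
FPKM + 0.1 (log axis) of 32 genes in the 6 HCC70 libraries, with open points for 24 h and filled points for 48 h in vehicle (black), 5 µM UA (orange) and 10 µM UA (purple), 1 library per point and no error bars. KRT17, KRT6A, TAGLN and MYL9 were lower at 48 h in all 3 pairs, whereas CXCL8 was at 61.4 and 84.8 FPKM with 5 µM and IFIT1 at 3.33 and 1.05 with 10 µM UA.

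Lipid synthesis genes were mostly higher. Of all genes compared, 38% were higher at any size, 1.46% past 2-fold and 5.06% past 1.5-fold. Of 20 lipogenic and LXR target genes 16 were higher, 1 past 2-fold and 4 past 1.5-fold, with a median of 0.29. SCD (stearoyl-CoA desaturase) was at 57.2 FPKM at 24 h and 120.2 at 48 h (1.07), FADS2, a fatty acid desaturase, at 71.6 and 127 (0.82), and SREBF1, the transcription factor of fatty acid synthesis, at 126 and 213 (0.76). FASN (fatty acid synthase) was at 108 and 144. Of 27 cholesterol synthesis and uptake genes 22 were higher, none past 1.5-fold, with a median of 0.19. MSMO1 was at 48.1 and 69.9 and LSS at 27.5 and 39.4.

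Interferon-stimulated and antigen presentation genes were higher in part. Of 43 genes 29 were higher, 2 past 2-fold and 6 past 1.5-fold, with a median of 0.11, which is 0.22 above that of all genes. The shares over all genes were 38% higher at any size, 1.46% past 2-fold and 5.06% past 1.5-fold. Centred on the median 35 of the 43 were higher, beside 50% of all genes. On the scale without mitochondrial genes 41 were higher, beside 7287 of all 11828 genes, and on a trimmed mean 39. IFIT1, which binds foreign RNA, was at 3.53 FPKM at 24 h and 7.83 at 48 h (1.13), XAF1 at 1.31 and 3.76 (1.45), IFIT2 at 4.25 and 7.72, OAS2 at 2.30 and 3.99 and MX1 at 11.9 and 17.3. ISG15, a ubiquitin-like modifier, was at 111 and 104 and IFI27 at 297 and 241. PLAAT4, an interferon-responsive lipid-modifying enzyme outside the list, was at 48.7 and 113 (1.21). Other genes outside the list were lower. EPSTI1 was at 1.66 and 0.57 (−1.39) and SOCS1 at 6.47 and 3.08 (−1.05), both with a promoter match to the interferon-stimulated response element.

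The IFIT1 and CASP14 promoters are printed as those of an interferon-stimulated gene and of the most abundant gene past 3-fold higher. The RefSeq windows are chr10:89392373-89392672 and chr19:15049230-15049529, both on the plus strand. Capitals mark the interferon-stimulated response element, read on the other strand, in IFIT1, and 1 TGANTCA match and 2 NF-kB matches in CASP14.
IFIT1: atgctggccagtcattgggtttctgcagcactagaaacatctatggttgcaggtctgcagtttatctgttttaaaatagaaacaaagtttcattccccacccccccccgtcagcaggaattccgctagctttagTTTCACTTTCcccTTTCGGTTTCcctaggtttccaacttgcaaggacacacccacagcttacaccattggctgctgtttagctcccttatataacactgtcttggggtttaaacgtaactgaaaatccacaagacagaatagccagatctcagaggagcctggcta
CASP14: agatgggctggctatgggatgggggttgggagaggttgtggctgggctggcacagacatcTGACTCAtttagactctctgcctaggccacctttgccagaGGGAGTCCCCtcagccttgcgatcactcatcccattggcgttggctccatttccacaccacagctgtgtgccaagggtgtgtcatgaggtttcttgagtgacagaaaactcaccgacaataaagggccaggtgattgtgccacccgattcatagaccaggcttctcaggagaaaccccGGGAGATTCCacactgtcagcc

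In IFIT1 the matches begin 116 and 103 bases before the start. The element, added after seeing the values, was in 2.70% of the promoters of lower genes, 4.85% of those of higher genes, 2.78% of those of all genes compared and 3.65% of the whole table. In CASP14 the AP-1 match begins 190 bases before the start, so that this motif was also present in a promoter of a gene that was higher.

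Lists of ribosomal, proteasome, heat shock and NRF2-linked genes were lower by small amounts on the deposited scale. On that scale 61.7% of all genes compared were lower at any size and 2.02% past 2-fold. Of the 76 cytosolic ribosomal protein genes 74 were lower, none past 2-fold, with a median of −0.45, and their share of the summed FPKM was 7.25% at 24 h and 5.29% at 48 h. All 30 proteasome genes were lower (median −0.48), as were 22 of 27 ribosome biogenesis genes (−0.40), NOP56 being at 57.7 and 38.9 FPKM and NPM1 at 360.3 and 249. Among 15 cytosolic heat shock genes 14 were lower (−0.39), HSPB1 being at 2944 and 1553 FPKM. All 24 genes of a list of glutathione, iron and other genes linked to NRF2, the oxidant-responsive transcription factor, were lower (median −0.26), GCLM being at 29.0 and 19.1 and GPX2, the single member past 2-fold, at 2.51 and 0.39. On the scale without mitochondrial genes, 67 of 76 ribosomal protein, 26 of 30 proteasome, 18 of 27 biogenesis, 13 of 15 heat shock and 14 of 24 NRF2, glutathione and iron genes were lower, beside 4541 of all 11828.

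Of 53 DNA replication and S-phase genes 49 were lower, 8 past 1.5-fold and none past 2-fold, with a median of −0.35. Of all genes compared, 61.7% were lower at any size and 9.38% past 1.5-fold. On the scale without mitochondrial genes 41 of the 53 were lower, beside 4541 of all 11828. RRM2, a subunit of ribonucleotide reductase, was at 104 FPKM at 24 h and 52.2 at 48 h (−0.99), CDT1, a replication licensing factor, at 56.77 and 30.04, TYMS (thymidylate synthase) at 96.1 and 52.3 and PCNA at 106 and 73.7. MCM10 and RFC1, at 13.2 and 14.4 and at 15.9 and 24.1, were among the 4 higher. Mitotic genes lay with the bulk, with a median of −0.09. The CDK inhibitor CDKN1A (p21) was at 173 and 86.6, just short of 2-fold. Histone genes, whose mRNA mostly lacks a poly(A) tail and whose levels therefore depend on the selection of RNA, were split. Of 27, 5 were past 2-fold lower and 1 higher, beside 2.02 and 1.46% of all genes. On each of the 3 other scalings 4 were past 2-fold each way. All 11828 genes then held 229 higher and 172 lower (median), 247 and 155 (trimmed mean) and 298 and 122 (without mitochondrial genes). Some were of low abundance, H3C12 being at 1.76 and 0.26 FPKM and H2BC13, the higher gene, at 1.30 and 2.70.

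The respiratory chain differed by the genome that encodes it. Of the 13 mitochondrially encoded genes 11 were higher, with a median of 0.37, from MT-CO3 at 17196 and 15107 FPKM (−0.19) to MT-ND6 at 12738 and 31887 (1.32). The other members past 1.5-fold were MT-ND4L, MT-ND4 and MT-ND5. Of the 50 nuclear-encoded subunits 45 were lower, with a median of −0.26, and 33 were still lower on the scale without mitochondrial genes. Over all 11828 genes, 61.7% were lower and 38% higher, and 4541 were lower on the scale without mitochondrial genes. MT-ND6 lies on the opposite mitochondrial strand from its neighbour MT-ND5, which it adjoins without overlap. Without strand, fragments of either mitochondrial strand within MT-ND6 cannot be told apart. Glycolytic and hypoxia-inducible genes had a median of −0.08, near that of all genes, ENO1 being at 1475 and 1044 FPKM and CA9, a hypoxia-inducible carbonic anhydrase, at 7.01 and 12.6.

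**Figure D3:**
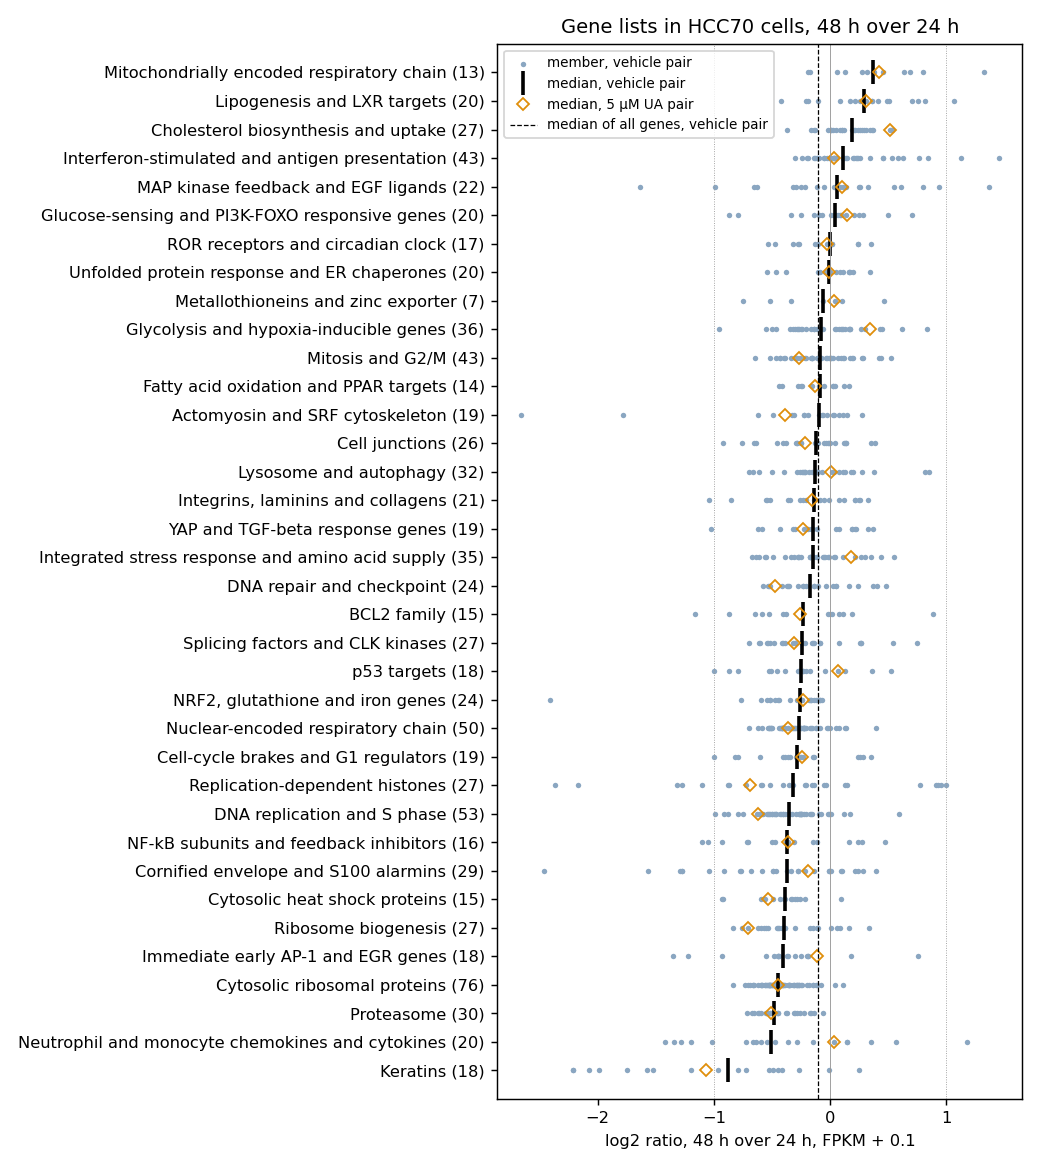
Log2 ratio of 48 h over 24 h (FPKM + 0.1) for the genes above 1 FPKM of 36 lists, with the number of genes in brackets, grey-blue points for genes and black bars for list medians in the vehicle pair, orange diamonds for medians in the 5 µM UA pair, and a dashed line at the median of all genes (−0.11). Keratins (−0.88) stood lowest and mitochondrially encoded genes (0.37) highest in the vehicle pair.

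The HCC70 pair with 5 µM UA shares no library with the vehicle pair and was set beside it to see which differences recurred. In that pair 173 of its 11875 genes (1.46%) were 2-fold higher and 492 (4.14%) lower. Of the 173 higher genes 41 were 2-fold higher there too, 23.7% of the vehicle list and 28.5% of the 144 such genes of the 5 µM pair, while 1.22% of all genes compared were. Another 29 were 2-fold lower. Of the 239 lower genes 80 were 2-fold lower with 5 µM, 33.5% of the vehicle list and 17.6% of 454, beside 3.84% of all genes, and 5 were 2-fold higher. Across 11828 genes the log2 ratios of the pairs had a Pearson r of 0.38 and a Spearman rho of 0.52, and across the 5793 genes above 10 FPKM in both vehicle libraries 0.66 and 0.64. These describe genes, which are not independent, and UA was present in the second pair at both times.

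**Figure D4:**
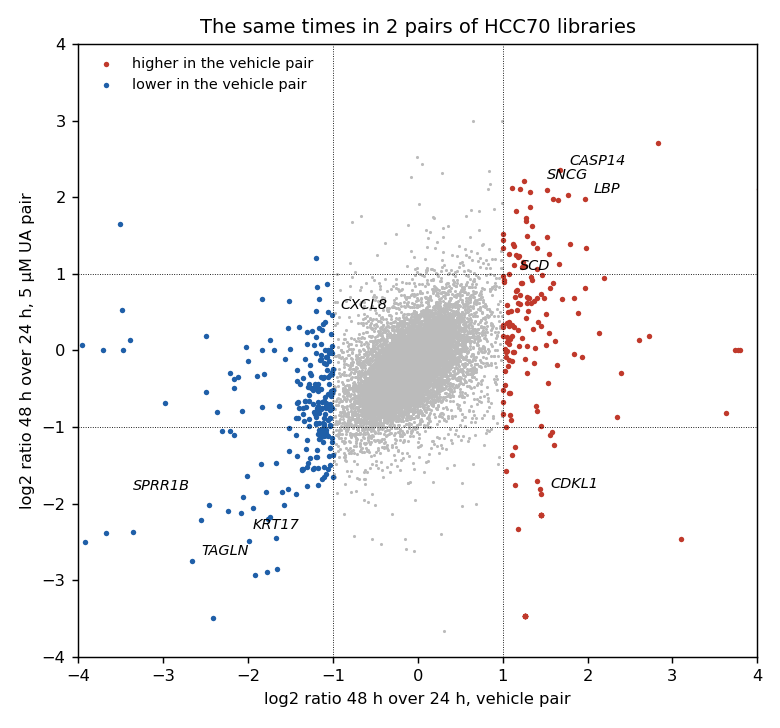
Log2 ratio of 48 h over 24 h in the 5 µM UA pair (y) against the vehicle pair (x) for the genes compared, with dotted lines at 2-fold, red for genes higher and blue for genes lower in the vehicle pair. KRT17 (−2.08 and −2.12) and CASP14 (1.68 and 2.35) went the same way in both pairs, CDKL1 (1.45 and −1.87) did not, and 20 genes lie outside the axes at 4.

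The keratins recurred closely. With 5 µM UA, KRT17 was at 2869 FPKM at 24 h and 659 at 48 h, KRT6A at 817 and 145, KRT16 at 845 and 209, KRT14 at 64.1 and 14.2 and KRT6B at 1061 and 406, and the list median was −1.07. TAGLN was at 32.4 and 4.74 and MYL9 at 7.98 and 2.14. SPRR1B was at 186 and 46.0 and IVL at 5.18 and 1.80. For each of these genes both 48 h libraries were below both 24 h libraries. The genes named singly in this paragraph are among the 41 higher and 80 lower genes past 2-fold in both pairs. Their recurrence therefore follows from how they were picked. Of the higher genes, CASP14 was at 64.1 and 328, CP at 88.6 and 185, LBP at 1.44 and 5.98, ORM2 at 14.2 and 47.1, SNCG at 1.78 and 7.57, UCA1 at 58.1 and 245, CCL5 at 18.7 and 43.8 and SCD at 60.6 and 145. The replication genes (median −0.62), ribosomal proteins (−0.45), proteasome (−0.51), lipogenic genes (0.31) and cholesterol genes (0.52) also kept their direction, where the median of all genes was −0.22. The interferon and antigen presentation list had a median of 0.03 there, above that of all genes as with vehicle, and IFIT1 was at 2.51 and 6.72.

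Other groups did not recur or differed in size between the pairs. CXCL1 was at 668 and 494 FPKM with 5 µM UA and CXCL8 at 61.4 and 84.8, and the chemokine list had a median of 0.04. SPRR2A was at 483 and 393, SPRR2D at 41.1 and 38.1 and FOSL1 at 21.1 and 22.1. SPRR2E, however, was at 80.3 and 38.5 FPKM and so was past 2-fold lower in both pairs. Hypoxia-inducible and glycolytic genes, whose median with vehicle (−0.08) was near that of all genes, had a median of 0.35. CA9 was higher at 48 h in both pairs, at 7.01 and 12.6 FPKM with vehicle and at 4.26 and 22.0 with 5 µM UA. HP was at 1.22 and 1.41. Whether such differences come from UA or from the spread between libraries cannot be told apart with 1 library each.

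A limma model with terms for time and dose over the vehicle and 5 µM libraries (4 libraries, 1 residual degree of freedom, 12073 genes) gave a test of the time effect, with the lone library of each condition taken to vary alike and the effect taken to be the same at both doses. At a Benjamini-Hochberg adjusted p of 0.05, 0 genes were higher and 1 (0.00828%) was lower at 48 h, the readthrough gene TNFSF12-TNFSF13, at 2.53 FPKM at 24 h and 0 at 48 h with vehicle and 3.18 and 0 with 5 µM (adjusted p = 0.019), whose FPKM is uncertain. At an unadjusted p of 0.05, 620 genes (5.14%) were higher and 2411 (20%) lower. The fit used the deposited scale, on which the medians of all genes were −0.11 and −0.22 in the 2 pairs, and no other. Centred on the median, more genes were past 2-fold higher than lower, 229 and 172 with vehicle and 328 and 251 with 5 µM. TAGLN, KRT17, LBP and CASP14 are among the genes past 2-fold the same way in both pairs. Their effects and SEs in a fit over those pairs therefore follow in part from how they were picked. TAGLN had a time effect of −2.70 ± 0.15 (SE) on the log2 scale with an adjusted p of 0.061, KRT17 one of −2.10 ± 0.15 and LBP one of 1.97 ± 0.15, both with an adjusted p of 0.090, and CASP14 one of 2.01 ± 0.21 with an adjusted p of 0.104 in the same limma fit. With the 10 µM libraries added (6 libraries, 2 residual degrees of freedom, 12278 genes), a fit chosen after seeing the data, limma gave 0 genes in either direction at an adjusted p of 0.05, and 539 higher (4.39%) and 2642 lower (21.5%) at an unadjusted p of 0.05, TAGLN being at −3.12 ± 0.30 (SE) and CASP14 at 1.92 ± 0.19, both with an adjusted p of 0.122.

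With 10 µM UA, 33 of the 173 higher genes were also 2-fold higher at 48 h (19.1%, beside 2.55% of all genes) and 82 of the 239 lower genes 2-fold lower (34.3%, beside 10.7%), while 22 and 19 went 2-fold the opposite way. KRT6A was at 457 and 32.3 FPKM there and TAGLN at 21.4 and 1.28. In the C4-2B vehicle pairs fewer of the genes were past 2-fold the same way. In the UA series 23 of the 173 higher genes were 2-fold higher (13.3%, beside 1.75% of all genes) and 12 of the 239 lower genes 2-fold lower (5.02%, beside 0.989%), with 18 of the latter 2-fold higher. In the digoxin series, normalized separately, these were 27 of 162 listed (16.7%, beside 3.43%) and 4 of 219 (1.83%, beside 0.907%), with 28 of the latter 2-fold higher. Across genes the log2 ratios of the HCC70 vehicle pair had a Spearman rho of 0.25 with the 10 µM pair over 11828 genes, and of 0.087 and 0.13 with the C4-2B pairs over 11828 and 11693.

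The GC content and length of genes moved with the log2 ratio. Across the 11177 protein-coding genes compared, Spearman's rho was −0.24 with the GC content of the exons and 0.27 with the length of the longest transcript. In 10 bins of GC content the median log2 ratio went from 0.014 in the lowest to −0.27 in the highest, and in the 5 µM pair from −0.065 to −0.48, whereas the 10 µM pair had a rho of 0.11 with GC content. The 187 lower protein-coding genes had a median GC content of 55.3% and a median length of 2309 bp, beside 48.1% and 3820 bp for all, and the 124 higher genes had 47.8%. After subtraction of the median of genes of like GC content and length, a setting added after seeing the data, 116 of the 124 higher and 114 of the 187 lower genes remained past 2-fold. So centred, the list medians were −0.66 for keratins, −0.23 for ribosomal proteins, −0.31 for the proteasome, −0.20 for replication, −0.09 for the cornified envelope list and 0.25 for interferon genes, and KRT17 was at −1.81, SPRR1B at −2.16 and TAGLN at −2.48. The part of GC content, length or the mitochondrial share in the lower genes was not tested.

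**Figure D5:**
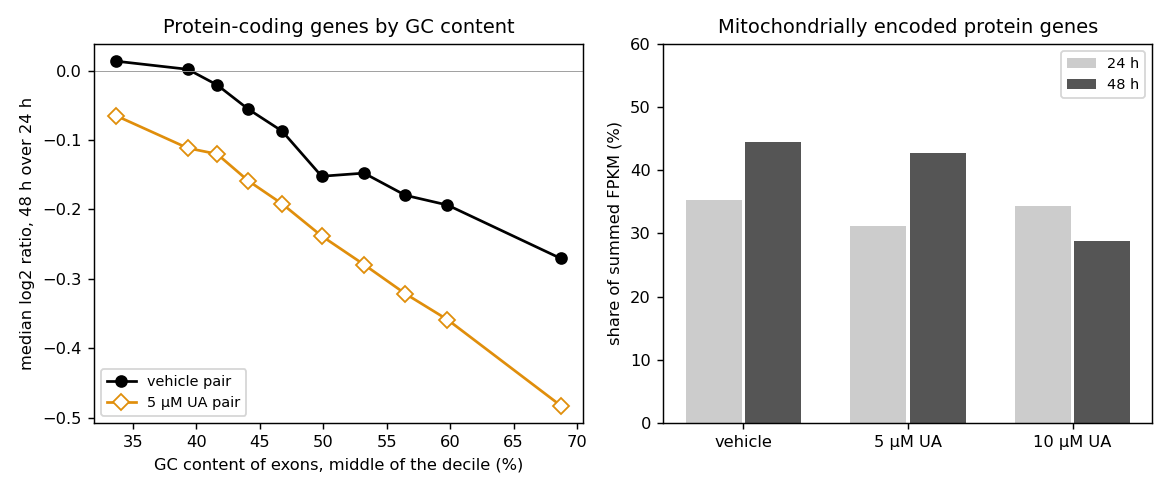
Left, median log2 ratio of 48 h over 24 h of protein-coding genes in 10 bins of exon GC content (%), in the vehicle pair (black, 0.014 to −0.27) and the 5 µM UA pair (orange, −0.065 to −0.48). Right, share of the summed FPKM (%) taken by the 13 mitochondrially encoded protein genes at 24 h (light) and 48 h (dark), which was 35.3 and 44.4% with vehicle, 31.2 and 42.7% with 5 µM and 34.3 and 28.9% with 10 µM UA.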

How the data were processed

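RNA was extracted with TRIzol, and the authors prepared TruSeq libraries from 1 µg of total RNA and sequenced them on a HiSeq instrument. Alignment used BWA and Bowtie against hg38, and Cufflinks gave the transcript levels, per the labels (versions not given in the sources used here). The deposited values are FPKM to 2 decimals. Files of the digoxin series carry no unit, and FPKM was assumed. Depth was estimated from the spacing of low values, at about 14600000 fragments at 24 h and 14000000 at 48 h, or 54.2 and 52.0 fragments at 1 FPKM for a transcript of 3711 bp. The estimate is rough, as 37.6 and 34.1% of the values fell no more than 0.1 from whole fragments (an even spread gives 20%), and counts were not recovered and no counting interval is given. At most 0.279% of values were identical between both vehicle libraries.

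Symbols and positions came from GENCODE v44 by Ensembl ID, and entries of a symbol were summed (41 IDs beyond the first). Promoter sequences came from RefSeq, matched by symbol for 9454 of the 11828 genes. Genes above 1 FPKM in either library were compared as log2 ratios with a pseudocount of 0.1, and 44 gene lists were described by their counts and median. The gene rule took the 20 highest and 20 lowest ratios above 5 FPKM, up to 15 genes per direction past 2-fold in both the vehicle and 5 µM pairs, for each list the 3 highest and 3 lowest, any past 2-fold and the best known, and genes the paper names for HCC70. The members, lists and rule were chosen with earlier results of these data known. The 4 treated C4-2B libraries were not used. Alternatives were pseudocounts of 1 and 0.01, no filter, a filter at 5 FPKM, centring on the median or on a mean trimmed by 30%, equal sums without mitochondrial genes, the highest entry of a symbol, 1.5- and 3-fold thresholds, a limma fit, and, added after seeing the data, protein-coding genes only, genes of certain FPKM only, a limma fit over all 6 HCC70 libraries and centring by 10 bins of GC content and 5 of length. Computation used Python 3.11.15, numpy 2.4.6, pandas 2.3.3, matplotlib 3.10.9, R 4.3.3 and limma 3.58.1, and was tested on simulated data.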

Additional observations from a re-analysis of the deposited data

Results flagged for a closer look

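Of the named genes, 12 were past 2-fold in the vehicle pair and past 2-fold the opposite way in an HCC70 pair with UA, beside 7 entries of uncertain FPKM that are not described further (the small nuclear RNA RNVU1-32 and copies of the 5.8S ribosomal RNA with identical values). None of these differences could be tested with 1 library per condition, and they are given as log2 ratios of 48 h over 24 h. In the 10 µM pair, SPRR2E was at 3.56 (−2.30 with vehicle), SPRR2D at 2.64 (−1.57), SPRR2A at 2.28 (−1.27), CXCL8 at 3.08 (−1.02), CXCL1 at 1.22 (−1.28) and FOSL1 at 1.28 (−1.22), all higher at 48 h where the vehicle pair was lower. IFIT1 was at −1.58 (1.13 with vehicle), SEMA5B, a semaphorin, at −1.54 (1.46) and the histone gene H2BC13 at −3.38 (1.00). GATD1 was at −1.07 with 5 µM and −1.01 with 10 µM UA beside 1.58 with vehicle. In the 5 µM pair CDKL1, a kinase gene, was at −1.87 (1.45 with vehicle) and CXorf49, a gene with a near-identical copy, at 4.5 (−2.71). CXorf49 was at 14.3 and 2.09 FPKM with vehicle and at 0 and 2.16 with 5 µM, H2BC13 at 1.30 and 2.70 with vehicle, and GATD1, SEMA5B and CDKL1 were below 10 FPKM in every HCC70 library.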

How the results depend on the processing

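Each condition has 1 library, so no replicate number pairs samples and no replicate could be left out, and the limma fits with a dose term are those that pair the times within a dose. Counts of genes past 2-fold are given as higher and lower at 48 h. For the vehicle pair (173 and 239 as reported) they were 63 and 90 with a pseudocount of 1 FPKM, 200 and 260 with 0.01, 739 and 779 with no filter, 55 and 92 above 5 FPKM, 599 and 1109 at 1.5-fold and 38 and 62 at 3-fold. Centring on the median gave 229 and 172, a trimmed mean 247 and 155, equal sums without mitochondrial genes 298 and 122, and centring protein-coding genes by GC content and length 162 and 115. The highest entry of a symbol gave 173 and 239, protein-coding genes alone 124 and 187, and genes of certain FPKM 142 and 200. Limma gave 0 and 1 at an adjusted p of 0.05 (620 and 2411 at an unadjusted p of 0.05) over 4 libraries, and 0 and 0 (539 and 2642) over 6. For the 5 µM pair (173 and 492) they were 73 and 256 with a pseudocount of 1, 672 and 1141 with no filter, 62 and 270 above 5 FPKM, 328 and 251 centred on the median, 347 and 239 on a trimmed mean, 330 and 250 without mitochondrial genes, 568 and 2198 at 1.5-fold and 57 and 117 at 3-fold. For C4-2B in the UA series (182 and 117) they were 58 and 45, 869 and 714, 27 and 26, 581 and 387, and 63 and 40 with a pseudocount of 1, no filter, above 5 FPKM, at 1.5-fold and at 3-fold. In the digoxin series (462 and 83) these were 180 and 35, 1251 and 515, 145 and 21, 1489 and 314, and 154 and 35, with 126 lower genes without mitochondrial genes. Of the 68 named genes past 2-fold in the vehicle pair, 68 stayed so with a pseudocount of 0.01, 61 when centred on the median, 58 without mitochondrial genes and 50 with a pseudocount of 1. No named gene past 2-fold changed direction. Beside the direct effect of thresholds and filters, the cause of these differences was not tested.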

Other observations

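The near-identical copies SULT1A3 and SULT1A4 went in opposite directions, and the division of fragments between them is uncertain. SULT1A4 was at 7.29 FPKM at 24 h and 0.62 at 48 h with vehicle and at 10.1 and 1.87 with 5 µM UA, while SULT1A3 was at 6.68 and 17.1 with vehicle and at 6.33 and 12.03 with 5 µM.
Genes that feed back on growth factor signalling were split as well. Beside EPGN, the EGF ligand HBEGF was at 9.24 and 5.82 FPKM and the phosphatase DUSP6 at 13.3 and 8.56, while LRIG1, which restrains EGF receptors, was at 6.62 and 11.6 and ETV5 at 0.43 and 1.27.
Of the lysosomal genes, GPNMB was at 2.52 and 4.53 FPKM with vehicle and at 2.56 and 11.3 with 5 µM UA, and RRAGD at 4.08 and 7.47 and at 5.63 and 7.84, although the list of 32 genes had a median of −0.13, near that of all genes (−0.11).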
